A study of Mus musculus with 2 samples.

Results

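The genes described here encode heat shock proteins and J-domain cochaperones. They are the gene probes, present on both arrays, whose gene name in the scanner files begins with Hspa, Hspb, Hspd, Hspe, Hsph, Hsp90, Dnaja, Dnajb or Dnajc, or with Cct and a digit. This rule took 151 spots, 133 probes and 73 genes out of 27975 genes on the array. It reads names only, so it misses relatives filed under other names and takes in Hspbap1, which is a protein that binds a small heat shock protein.

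The study compared primary epidermal keratinocytes of wild-type FVB/NJ mice with those of K14-caSmad1 mice, both taken on day 20 after birth. The transgenic mice make a permanently active form of Smad1, a transcription factor of bone morphogenetic protein signalling. K14 names the keratin 14 promoter, which is active in the basal keratinocytes of skin and related epithelia, so the cells that carry the active protein are a subset of the epidermis. The RNA was amplified in a single round and hybridised to 2 dual-colour Agilent arrays of 60-base probes on 1 slide, with wild type in Cy3 and K14-caSmad1 in Cy5 on each. Per the labels these are biological replicates, and the labels do not give the number or sex of the animals.

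Heat shock proteins are molecular chaperones that bind unfolded proteins and help them fold, move to their compartment or be degraded. Proteins of the Hsp70 family do this in an ATP-driven cycle that J-domain proteins (DNAJA, DNAJB and DNAJC) start and that Hsp110 proteins and other exchange factors end. Hsp90, the ring-shaped TRiC complex built of Cct subunits, mitochondrial Hsp60 with its lid Hsp10, and the small heat shock proteins handle further classes of client. In epidermis they act in cells that make large amounts of keratin and then cornify, and the small heat shock protein Hspb1 is known to be abundant in the differentiating layers.

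The promoter sequences are shown first, because cells are known to switch chaperone genes on through short motifs close to the start site. RefSeq windows of the 250 bases before each transcript start, on build GRCm38.p6 of the reference mouse genome, were matched by symbol to 61 of the 73 genes. A heat shock element, the site of heat shock factors, was searched on both strands as GAA, any 2 bases, TTC, any 2 bases and GAA, and 0.466% of 32851 windows of all genes hold it. Among the members it was found before Hspd1, Hspe1 and Dnajb6. The search takes exact matches only, so that a weaker or shorter site is missed. The shorter run of GAA, any 2 bases and TTC, which 6.69% of all windows hold, was found before 11 members. These were Cct2, Dnaja1, Dnaja4, Dnajb6, Hspa1a, Hspa1b, Hspb1, Hspb3, Hspb6, Hspd1 and Hspe1. Hspd1 and Hspe1 are transcribed in opposite directions from start sites with 215 bases between them, so that the printed interval, on the strand of Hspe1, serves both. The matches of the full element are in capitals, and in the Hspd1 and Hspe1 interval 2 such matches overlap.
Hspd1 and Hspe1, chr1:55087933-55088147, plus strand: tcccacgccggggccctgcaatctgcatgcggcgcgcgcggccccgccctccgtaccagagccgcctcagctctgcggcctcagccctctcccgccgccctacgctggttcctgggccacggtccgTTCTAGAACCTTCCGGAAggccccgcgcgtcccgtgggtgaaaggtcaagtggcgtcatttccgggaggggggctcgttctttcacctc
Dnajb6, chr5:29735798-29735897, plus strand: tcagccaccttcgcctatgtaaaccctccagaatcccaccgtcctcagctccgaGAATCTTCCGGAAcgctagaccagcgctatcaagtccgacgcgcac

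The endoplasmic reticulum (ER) stress element was searched on both strands as CCAAT, any 9 bases and CCACG, which 0.113% of all windows hold. It was found before 3 members, which encode ER proteins: Hspa5 (BiP, the Hsp70 of the ER), Hsp90b1 (Grp94, its Hsp90) and Dnajc3a, the file's name for Dnajc3 (a J-domain protein of the ER that also restrains eIF2 kinases). Hsp90b1 holds 2 matches, of which the second lies on the opposite strand.
Hspa5, chr2:34771940-34772089, plus strand: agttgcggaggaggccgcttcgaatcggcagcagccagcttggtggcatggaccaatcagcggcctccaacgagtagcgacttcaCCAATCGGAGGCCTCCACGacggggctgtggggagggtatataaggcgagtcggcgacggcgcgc
Hsp90b1, chr10:86705445-86705694, minus strand: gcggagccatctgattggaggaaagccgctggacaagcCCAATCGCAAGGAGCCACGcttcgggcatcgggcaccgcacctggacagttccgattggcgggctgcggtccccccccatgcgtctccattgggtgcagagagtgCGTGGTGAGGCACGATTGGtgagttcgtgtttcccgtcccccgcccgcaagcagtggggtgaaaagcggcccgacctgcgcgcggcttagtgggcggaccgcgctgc
Dnajc3a, chr14:118937782-118937931, plus strand: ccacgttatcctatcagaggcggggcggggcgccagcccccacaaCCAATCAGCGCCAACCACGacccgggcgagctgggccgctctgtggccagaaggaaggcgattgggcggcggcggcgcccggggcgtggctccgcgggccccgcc

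Before the members, the samples themselves are described. On each array 14412 to 16144 of 43379 gene spots were well above background in a channel. All 14 keratinocyte markers listed were above background in both channels. The log2 ratio, which sets K14-caSmad1 against wild type throughout, differed between the arrays with an SD of 0.0946 over 12287 probes spotted once, less than the 0.107 predicted from the noise of repeated spots. Over the means of 92 probes spotted 10 times this SD was 0.0523, above the predicted 0.034. By the first measure the arrays agree within spot noise and by the second they differ by more, so that whether they hold separate animals is not settled by the values. They were counted as 1 sample as the more cautious choice, and no p-value here is read as a spread between animals. With the same dye orientation on both arrays, a dye effect and a genotype effect cannot be told apart. Smad1 itself had log2 ratios of 0.28 and 0.26 on the arrays, from a probe whose match to the transgene is not known.

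A gene was tested where at least 1 channel of a probe was well above background on each array, and the probe with the highest mean intensity stood for it. Of the 73 members, 60 were tested and 57 were above background in both channels on both arrays. The 13 members not tested were Cct6a, Dnajb7, Dnajb8, Dnajb13, Dnajb14, Dnajc5b, Dnajc5g, Hspa1l, Hspa12a, Hspb3, Hspb6, Hspb7 and Hspb9. Several of these, such as Hspb3, Hspb6 and Hspb7 of muscle and Hspa1l and Hspb9 of testis, are known from other tissues. Hspa2 and Cct6b, known from male germ cells and testis, were nonetheless tested. The cell preparations at this age gave signal for most of the cytosolic, ER and mitochondrial chaperones on the array. They also gave signal for 3 of its 7 small heat shock proteins. Which cells of the preparations gave the signal was not tested.

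More members were higher in K14-caSmad1 cells than lower, while over all genes more were lower, an excess that turns under median centring and with normexp on all spots. At least 1.5-fold higher on both arrays were 13 of the 60 members (21.7%), against 13.2% of all 11748 genes tested. At least 1.5-fold lower on both arrays were 8 members (13.3%), against 19.5% of all genes. These 8 take in Hspa12b, which was not above background in K14-caSmad1 and whose ratio is only a bound. With both channels required above background, 13 members were higher and 7 lower, against 14.8% and 17.4% of all genes under that filter. At least 2-fold higher were 3 members, or 5%, beside 4.09% of all genes, and at least 2-fold lower were 3 members, or 5%, beside 9.81%. The median log2 ratio was 0.07 over the members and -0.03 over all genes. These are descriptions of counts and were given no test, since the genes were chosen with results of these data known.

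The scaling of the arrays moves the direction of these counts over all genes. At 1.5-fold more members were higher than lower in each setting, by numbers that also moved. Centring each array on its median in place of loess moved the median of all genes to 0.22, and 66.2% of all 1.5-fold calls were then on the higher side in place of 40.4%. The members then gave 20 higher and 5 lower. With normexp fitted on all spots the share of higher calls over all genes was 52.7%, with 12 members higher and 3 lower. By limma's moderated test with Benjamini-Hochberg adjustment over all genes, 27 members were higher and 23 lower, or 83.3% of those tested, against 87.1% of all genes. A share this close to that of all genes is no result about the members, and the test measures how well the hybridisations repeated.

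**Figure D1:**
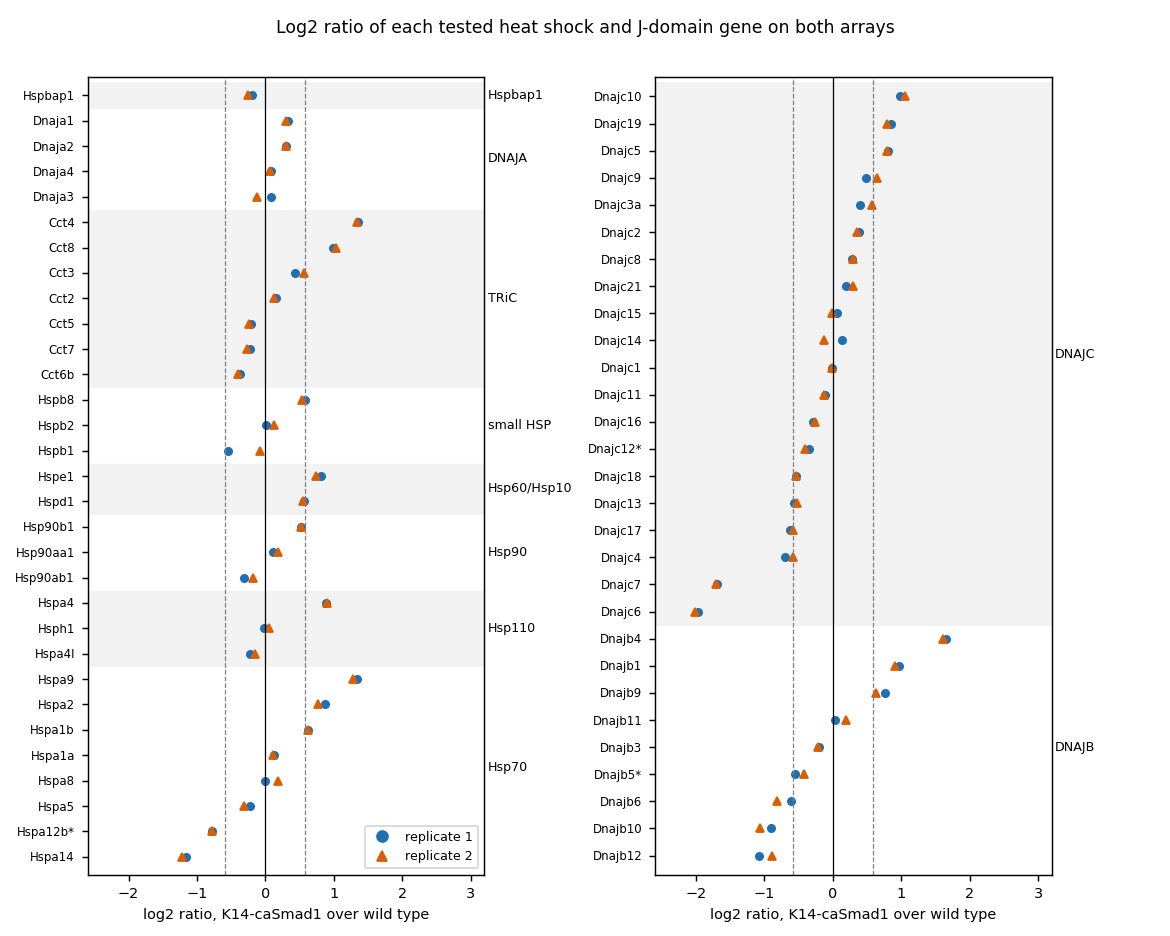
Log2 ratio of K14-caSmad1 over wild type (horizontal axis) of each of the 60 tested members on replicate 1 (circles) and replicate 2 (triangles), grouped by family. Dashed lines mark 1.5-fold, and an asterisk marks the 3 members not above background in K14-caSmad1. The arrays gave nearly the same value for most genes, the widest gap being that of Hspb1, and the DNAJB and DNAJC families spread to both sides.

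The Hsp70 family held members on both sides. Of its 8 tested genes 3 (37.5%) were past 1.5-fold higher (Hspa9, Hspa2, Hspa1b) and 2 (25%) lower (Hspa14, Hspa12b). These counts of few genes stand beside 13.2% and 19.5% of all genes, and the ratio of Hspa12b is only a bound. Hspa9, or mortalin, which pulls proteins into mitochondria and folds them there, had normalized log2 signals of 12.93 and 12.58 in wild type and of 14.26 and 13.87 in K14-caSmad1 on replicates 1 and 2. Its K14-caSmad1 signals were above both wild-type signals, at log2 ratios of 1.34 and 1.29, or 2.48-fold. A second probe of Hspa9 gave 0.53 and 0.56, the same direction at a smaller size.

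Hspa14, a distant Hsp70 that works at the ribosome, had signals of 14.01 and 13.84 in wild type and of 12.85 and 12.62 in K14-caSmad1. It was lower on both arrays, at log2 ratios of -1.16 and -1.22, or 2.28-fold, from its probe at chr2:3406219-3406278 on build mm9. Dnajc2, its partner in the ribosome-associated complex, was not named by the rule for genes to describe and was chosen after its values were seen, which were 0.38 and 0.36. Hspa2, known as the Hsp70 of male germ cells, had 10.78 and 10.68 in wild type and 11.65 and 11.44 in K14-caSmad1. Its log2 ratios were 0.87 and 0.77, and a second probe gave 0.29 and 0.38.

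Hspa12b, an Hsp70 relative known from endothelium, was above background only in wild type, where its signals were 8.93 and 8.86. K14-caSmad1 read 8.15 and 8.08, not well above background, so that the ratio is only a bound of at least 1.14-fold lower. This bound sets the bright group's mean against the lowest signal well above background in the dim channel, or the probe's own signal where that is higher. Of 6 genes of the endothelial marker list 3 were tested, Flt1, Vwf and Esam, each above background in wild type only. Like Hspa12b they were tested only through wild type, which fixed their direction beforehand. The summed signal of this list ran from 1942 to 2050 in wild type. In K14-caSmad1, where 0 of these genes were above background, it ran from 1119 to 1220. The part of endothelial cells in the value of Hspa12b was not tested. Dnajb5 and Dnajc12 were likewise above background in wild type only, with bounds of at least 1.14-fold and 1.19-fold lower. In RNA of a whole cell preparation, fewer cells of a type and less RNA per cell cannot be told apart.

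The heat-inducible Hsp70 genes Hspa1a and Hspa1b are near-identical neighbours on chromosome 17, so their signals may be shared. The Hspa1b probe had signals of 12.55 and 12.45 in wild type and of 13.17 and 13.08 in K14-caSmad1, at log2 ratios of 0.62 and 0.63. The brightest Hspa1a probe had 14.90 and 14.76 in wild type and 15.02 and 14.88 in K14-caSmad1, at ratios of 0.12 and 0.12. A second Hspa1a probe gave 0.60 and 0.69. The values for inducible Hsp70 therefore ran from 0.12 to 0.64 by probe, as means of both arrays, all above 0.

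The Hsp70 probes are shown because the value depends on which is read. Printed are the first 30 letters of each 60-base probe, as the scanner files give them, with positions on mm9 and without capitals, as no motif was searched. The first 30 letters of the second Hspa1a probe are also the last 30 of the first one.
Hspa1a, brightest probe, chr17:35106796-35106855, log2 ratio 0.12: tagtttgtcctgcaatcaagtcctagactt
Hspa1a, second probe, chr17:35106766-35106825, log2 ratio 0.64: agggaaactaaactgtctttcagttacttt
Hspa1b, chr17:35094200-35094259, log2 ratio 0.62: ctgacaagaagaaggtgctggacaagtgcc
Hspa4, brightest probe, chr11:53075923-53076436, log2 ratio 0.89: actagggaagcaaatccaacagtatatgaa
Hspa4, second probe, chr11:53073347-53073406, log2 ratio -0.52: aactctaggtcacattcttacactaagaaa
Overlapping probes of the same transcript thus read ratios that were 0.52 apart on the log2 scale.

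The constitutive and ER forms of Hsp70 were close to even. Hspa8 (Hsc70, which also strips clathrin from vesicles) had signals of 13.61 and 13.99 in wild type and of 13.60 and 14.18 in K14-caSmad1, at ratios of -0.01 and 0.19. A second Hspa8 probe gave 0.56 and 0.54. Hspa5 had 15.66 and 15.64 in wild type and 15.43 and 15.32 in K14-caSmad1, at ratios of -0.23 and -0.32. Hspa8 thus had no common direction across arrays on its brightest probe, and Hspa5 was slightly below 0 on both and in every setting tried (at most -0.06).

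Among the Hsp110 exchange factors Hspa4 was past 1.5-fold and the others were not. Its brightest probe had signals of 11.25 and 10.99 in wild type and of 12.13 and 11.88 in K14-caSmad1, at log2 ratios of 0.88 and 0.90. The second probe of Hspa4, above background in K14-caSmad1 on 1 array, gave -0.34 and -0.69, and the mean of both probes was 0.19. It was the member whose probes pointed in opposite directions by more than 0.5 on each side, which holds for 2.48% of all genes with several tested probes. Hsph1, the inducible form, had ratios of -0.02 and 0.06 and showed no common direction.

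No Hsp90 gene was past 1.5-fold. Hsp90aa1, the inducible cytosolic form, had ratios of 0.12 and 0.19, from signals of 12.31 and 13.90 in wild type and of 12.42 and 14.09 in K14-caSmad1. Hsp90ab1, the constitutive cytosolic form, had -0.31 and -0.19 on its brightest probe and 0.47 and 0.64 on a second, dimmer one. Hsp90b1, whose promoter holds the ER stress element, had 14.41 and 14.22 in wild type and 14.92 and 14.74 in K14-caSmad1, at ratios of 0.52 and 0.52. A second Hsp90b1 probe gave 0.40 and 0.33. On its brightest probe Hsp90b1 lay just under 1.5-fold on both arrays. The direction of Hsp90ab1 depended on the probe, and the mean of its probes was 0.15.

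The mitochondrial chaperones Hspa9, Hspd1 and Hspe1 were above 0 on every tested probe, while the J-domain proteins of mitochondria were mixed. Of the 7 members placed in mitochondria 3 (42.9%) were past 1.5-fold higher and 0 lower, beside 13.2% and 19.5% of all genes. Their median log2 ratio was 0.56 beside -0.03 over all genes (0.35 to 0.80 over the other settings). Hspe1, the Hsp10 lid, had signals of 12.53 and 12.26 in wild type and of 13.34 and 12.997 in K14-caSmad1, at ratios of 0.81 and 0.74. Hspd1, the Hsp60 barrel that shares its promoter interval, had 14.24 and 13.95 in wild type and 14.81 and 14.49 in K14-caSmad1, at ratios of 0.57 and 0.54. A second Hspd1 probe gave 0.83 and 0.96. Both genes of the shared interval were thus higher on every tested probe and array, Hspd1 just short of 1.5-fold on its brightest probe.

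Dnajc19, a J-domain subunit of the motor that imports proteins into mitochondria, had signals of 12.73 and 12.62 in wild type and of 13.58 and 13.41 in K14-caSmad1. Its ratios were 0.85 and 0.80, and those of a second probe -0.10 and -0.14. Dnaja3, the mitochondrial J-domain partner of Hspa9, lies outside the rule for genes to describe and was chosen after its values were seen, as the member whose probes lay farthest apart. Its brightest probe gave 0.08 and -0.12, while a probe nearer the start of the gene gave -2.49 and -2.58. That probe had signals of 11.39 and 11.28 in wild type and of 8.89 and 8.70 in K14-caSmad1, where it was above background on 1 array. The brightest probe read an even level and the other a large difference, and their first 30 letters are shown for that reason.
Dnaja3, brightest probe, chr16:4707389-4707448, log2 ratio -0.02: tactccgtggtaaatttcattgtcttttcc
Dnaja3, other probe, chr16:4701224-4701283, log2 ratio -2.54: cccggattaatagctatggctatggtgacc

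The TRiC ring folds actin and tubulin and is known to contain its subunits in equal number. The 7 tested Cct genes are not the ring as such, as they take in Cct6b and leave out Tcp1 and the untested Cct6a. The array read them unequally: 2 (28.6%) were past 1.5-fold higher, 0 lower, and the median was 0.14. These counts of few genes stand beside 13.2% and 19.5% of all genes. Cct4 had signals of 12.84 and 12.52 in wild type and of 14.19 and 13.87 in K14-caSmad1. Its ratios were 1.36 and 1.34, or 2.55-fold, from its probe on chromosome 11. The SE of limma's moderated fit was 0.02 on the log2 scale, which measures how well the hybridisations repeated. Cct8 had 10.98 and 11.12 in wild type and 11.97 and 12.15 in K14-caSmad1, at ratios of 0.98 and 1.03. Tcp1, the ring's first subunit, whose name the rule does not take, had a mean ratio of 0.79, and its second probe 0.33.

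The other subunits lay closer to even. Cct3 had ratios of 0.43 and 0.56 and Cct2 of 0.16 and 0.12. A second Cct2 probe, above background in wild type on 1 array, gave 0.39 and 0.35. Below 0 were Cct5 (-0.20 and -0.24), Cct7 (-0.23 and -0.26) and Cct6b (-0.38 and -0.40), the last being the form known from testis. Under median centring Cct5 moved to 0.04, so that its direction depends on the scaling, and Cct6b to -0.08, while Cct4 and Cct8 stayed past 1.5-fold in each of 10 settings. Cct4 was thus above Cct5 and Cct7 in each setting, with each subunit read by its own probe.

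The small heat shock proteins, which hold unfolded proteins without ATP, gave no member past 1.5-fold. Hspb1 (Hsp25) had signals of 15.73 and 15.92 in wild type and of 15.18 and 15.85 in K14-caSmad1. Its ratios of -0.55 and -0.08 were the farthest apart of all members, so that its size is not settled between the arrays. Hspb8, which works with Bag3 in selective autophagy, had 13.49 and 13.23 in wild type and 14.07 and 13.77 in K14-caSmad1, at ratios of 0.58 and 0.53. Of these proteins Hspb8 was nearest the 1.5-fold line.

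**Figure D2:**
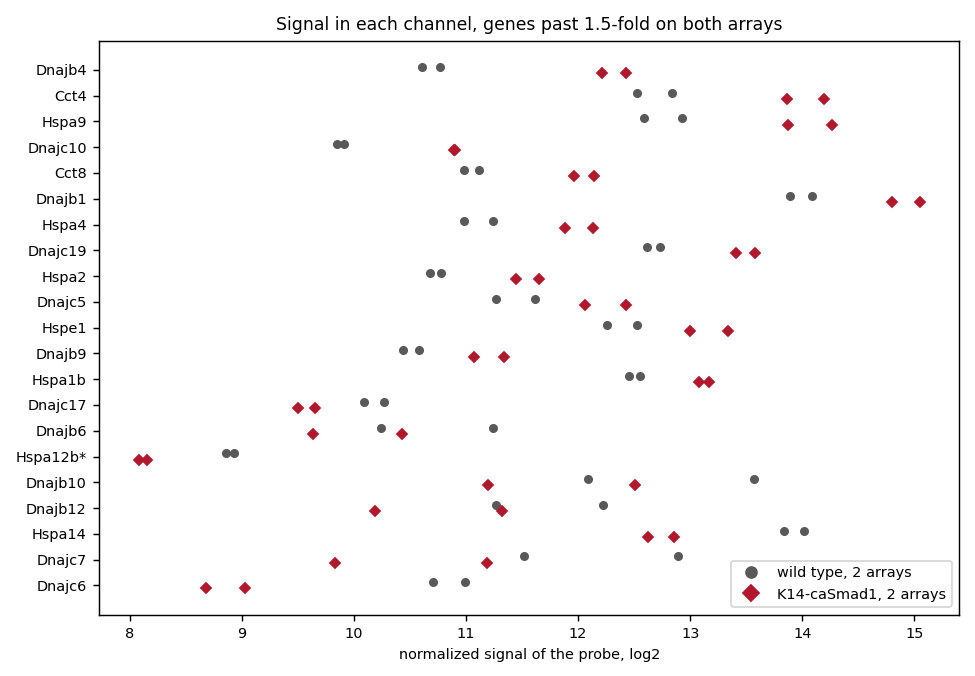
Normalized log2 signal (horizontal axis) of the brightest probe of each of the 21 members past 1.5-fold on both arrays, in wild type (grey circles, 1 per array) and K14-caSmad1 (red diamonds, 1 per array), ordered by ratio. The signals of the genotypes do not overlap except in Dnajb6, Dnajb10 and Dnajb12, where the arrays differ in level more than the genotypes do. The asterisk marks Hspa12b, not above background in K14-caSmad1.

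Of 33 J-domain genes tested, 6 (18.2%) were past 1.5-fold higher and 6 (18.2%) lower, beside 13.2% and 19.5% of all genes, with a median of 0.00. The 27 other members gave 7 higher (25.9%) and 2 lower (7.41%) with a median of 0.12. Of these 2 lower genes Hspa12b gives only a bound, and the difference between the groups was not tested. Dnajb4, a cytosolic J-domain protein, had signals of 10.77 and 10.61 in wild type and of 12.42 and 12.22 in K14-caSmad1. Its ratios of 1.66 and 1.61, or 3.10-fold, were the highest of all members, from its probe at chr3:151847247-151847306 on mm9. A second probe, above background in K14-caSmad1 only, gave 0.94 and 0.95, a bound of at least 1.89-fold higher.

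Dnajb1, the main partner of inducible Hsp70, had signals of 14.08 and 13.89 in wild type and of 15.05 and 14.80 in K14-caSmad1. Its ratios were 0.97 and 0.91, and a second probe gave 0.29 and 0.32. Dnajc5, the cysteine-string protein of secretory vesicles, had 11.62 and 11.27 in wild type and 12.43 and 12.06 in K14-caSmad1. Its ratios were 0.81 and 0.80, and a second probe gave 0.10 and 0.12. For each of these genes the second probe kept the direction and fell short of 1.5-fold. Dnaja1, a cytosolic partner of Hsc70, was not past 1.5-fold on its brightest probe, at 0.32 and 0.31, and its other probes gave 0.32 and 0.43, and 0.67 and 0.68.

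The lower J-domain genes were led by Dnajc6 and Dnajc7. Dnajc6, or auxilin, which recruits Hsc70 to uncoat clathrin vesicles, had signals of 10.99 and 10.70 in wild type and of 9.03 and 8.68 in K14-caSmad1. Its ratios were -1.97 and -2.02, or 3.98-fold lower, the lowest of the members, from its probe at chr4:101315033-101315092 on mm9. The size depended on the processing, with a mean ratio of -3.13 from the scanner's processed signals and of -1.31 with normexp on all spots. The K14-caSmad1 signals of Dnajc6 were well above background on both arrays. They were close to those of Dnajc12, 8.54 and 8.61, which were not above background. Dnajc7, which links Hsp70 to Hsp90, had 11.52 and 12.89 in wild type and 9.83 and 11.19 in K14-caSmad1. Its ratios were -1.69 and -1.70, or 3.24-fold lower, close to each other on both arrays although replicate 2 read the higher level in each channel.

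Smaller differences in this direction were found in DNAJB genes. Dnajb10, the file's name for Dnajb2, which steers clients to the proteasome, had ratios of -0.90 and -1.07. Dnajb12, a J-domain protein of the ER membrane, had -1.08 and -0.89, and its second probe 0.01 and -0.10. Dnajb6, known to suppress protein aggregation, had -0.60 and -0.82 on its brightest probe and -0.50 and -0.55 on a second. The remaining Dnajb6 probe, which carries the accession of another transcript and was above background in K14-caSmad1 only, gave 0.50 and 0.44, a bound of at least 1.32-fold higher. Dnajb6 is thus the gene of a heat shock element promoter that was lower on the probes that read it in both genotypes.

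Dnajc17 stood at the edge of the rule, with ratios of -0.62 and -0.59, and its second probe gave 0.22 and -0.09. Just inside 1.5-fold with it lay Dnajb6 and Hspa1b. Just outside lay Dnajc4, at -0.70 and -0.58, and Hspd1. The log2 value of 1.5-fold is 0.58, so that members such as Dnajc17 and Dnajc4 are separated by less than the difference between arrays.

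The members of the ER gave values on both sides of 0. Of 9 members placed in the ER 2 (22.2%) were past 1.5-fold higher and 1 (11.1%) lower, with a median of 0.11. These counts of few genes stand beside 13.2% and 19.5% of all genes. Dnajc10 (ERdj5), which reduces disulphide bonds of misfolded proteins, had signals of 9.91 and 9.85 in wild type and of 10.89 and 10.90 in K14-caSmad1. Its ratios were 0.98 and 1.05, and its second probe also passed 1.5-fold at 0.80 and 0.77. Dnajc3a, whose promoter holds the ER stress element, had ratios of 0.40 and 0.58 on its brightest probe. The means of its other probes were 0.62, 0.004 and 0.46, the first being above background in wild type on 1 array. Dnajb11 (ERdj3), a partner of BiP, had 0.03 and 0.19. On their brightest probes the genes with that element thus gave 0.52 for Hsp90b1, 0.49 for Dnajc3a and -0.28 for Hspa5 as means of both arrays.

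Dnajb9 (ERdj4), which helps degrade misfolded ER proteins, shows how the reading depended on the probe. Its brightest probe had signals of 10.58 and 10.44 in wild type and of 11.34 and 11.07 in K14-caSmad1, at ratios of 0.76 and 0.63. The other probes gave 0.16 and 0.24, and -0.47 and -0.42, the last above background in wild type only and thus a bound of at least 1.27-fold lower. All lie within a single gene on chromosome 12, and they are printed from the start of the gene to its end.
Dnajb9, chr12:45307909-45307968, log2 ratio -0.44: tacatacactgattgttcaggacaatagtt
Dnajb9, chr12:45307433-45307492, log2 ratio 0.20: ctaaatgtctgaagctgtaattttgagtca
Dnajb9, chr12:45307313-45307372, log2 ratio 0.70: ccgtagaattggtgtaatggggaagattgt
The ratio was higher the nearer the probe lay to the gene's end.

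Over all members such an order was not seen. In 26 members with several tested probes, the probe nearest the start was above the one nearest the end in 13 and below it in 13, with a median difference of 0.00 on the log2 scale, against -0.08 over 2790 genes. The probes of a member lay 0.57 apart at the median, against 0.44 over 2820 genes. They were at least 1.5-fold apart in 13 members, or 50%, against 37.7% of all genes, and at least 2-fold apart in 4, or 15.4%, against 15.6%. In each of these 4, Dnaja3, Hspa4, Dnajb6 and Dnajb9, an outermost probe was not above background in every channel and array. Their signs differed in 7 members, or 26.9%, against 31.6%. Of the 21 members past 1.5-fold, 9 rested on 1 tested probe. Of the 12 with several, 2 (Dnajb4 and Dnajc10) passed 1.5-fold in the same direction on every tested probe. The second Dnajb4 probe was tested only through K14-caSmad1, which fixed its direction beforehand.

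**Figure D3:**
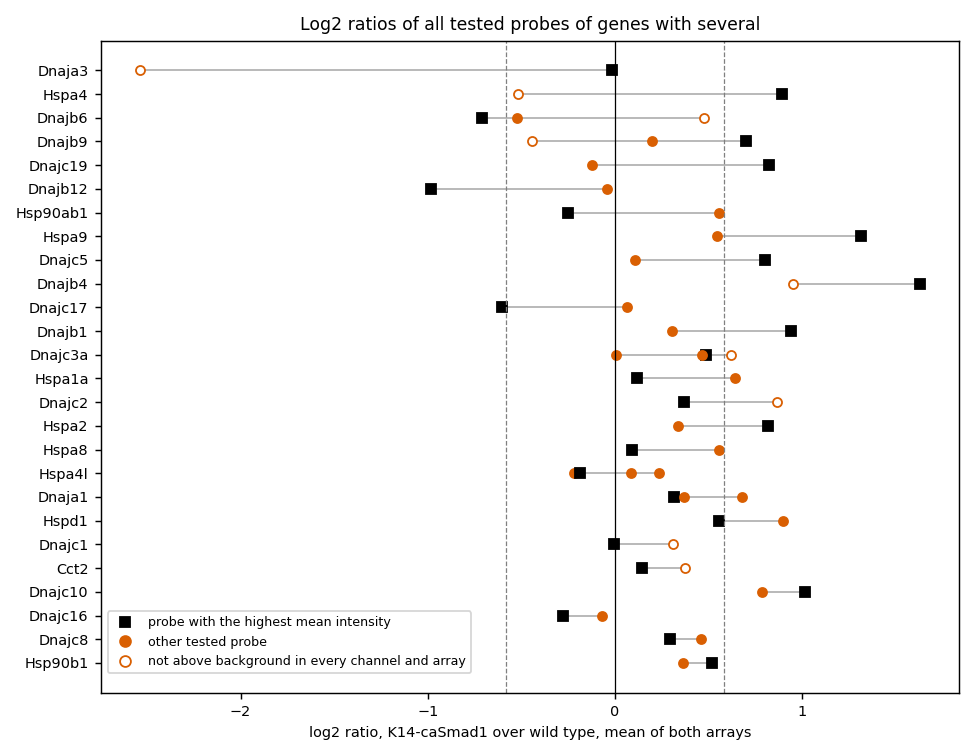
Mean log2 ratio of both arrays (horizontal axis) for every tested probe of the 26 members with several, with the brightest probe as a square and others as circles, ordered by spread. Open circles are probes not above background in every channel and array, and dashed lines mark 1.5-fold. Dnaja3, Hspa4, Dnajb6 and Dnajb9 are the 4 members with probes at least 2-fold apart, and each of these spreads rests on an open circle.

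The partners of these chaperones were read from lists of 78 other genes, of which 71 were tested. At least 1.5-fold higher on both arrays were 10 (14.1%) and lower 13 (18.3%), close to the 13.2% and 19.5% of all genes, with a median log2 ratio of -0.17. The counts per list that follow are of few genes and stand beside these same shares of all genes. Among 16 Hsp90 cochaperones 4 were higher and 2 lower. Ptges3 (p23), which stabilises closed Hsp90, had ratios of 1.58 and 1.498, with 0.93 as the mean of a second probe, and Unc45a, a myosin chaperone, had -1.11 and -1.15. Among 13 Hsp70 cochaperones 1 was higher and 3 lower. The lower ones were led by Grpel1, the exchange factor of mitochondrial Hspa9, at -0.98 and -1.07, and Bag2 at -0.95 and -0.93. A second Grpel1 probe gave a mean of -0.71. Outside the rule for genes to describe, the higher gene was Bag3, at 0.70 and 0.64, with -0.05 on a second probe. Tomm70a, also outside that rule, had -0.37 and -0.33 on its brightest probe, but means of 1.58 and 1.26 on its others.

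Of 5 heat shock factors and stress regulators 2 were higher and 1 lower. Hsf1, the main activator of heat shock genes, had -1.80 and -1.66 on its brightest probe, while the means of its other probes were -0.51 and -0.20. Nfe2l2 (Nrf2), which drives antioxidant genes, had 1.30 and 1.26, with 0.46 on another probe. Hsbp1, which lies outside the rule for genes to describe, was the other higher gene, at 0.68 on both arrays. The means of its other probes were -0.34 and -0.37, the opposite direction. Of 11 prefoldin and TRiC helper genes 2 were higher and 0 lower, namely Vbp1, a prefoldin subunit, at 0.89 and 0.92, and Tcp1. Hsf1 was thus below 0 on all its tested probes, by a size that depended on the probe.

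In the ER, 1 of 17 folding and stress genes (5.88%) was higher and 5 (29.4%) lower, beside 13.2% and 19.5% of all genes. Ero1l, an oxidase that forms disulphide bonds, had -1.33 and -1.34, and Manf, a secreted ER stress protein, had -1.0 on both arrays. All 8 other genes of mitochondrial folding and protein turnover were below 0, of which 2 were past 1.5-fold lower, with a median of -0.42. The lowest were Pam16, of the import motor, at -2.19 and -2.01, and Clpb, a disaggregase, at -0.81 and -0.82. Under median centring 6 of these 8 stayed below 0, with a median of -0.13. They thus lie below Hspa9, Hspd1 and Hspe1, the mitochondrial chaperones they work beside. The small heat shock protein Cryab, listed apart because its name falls outside the rule, had -0.71 and -0.51.

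**Figure D4:**
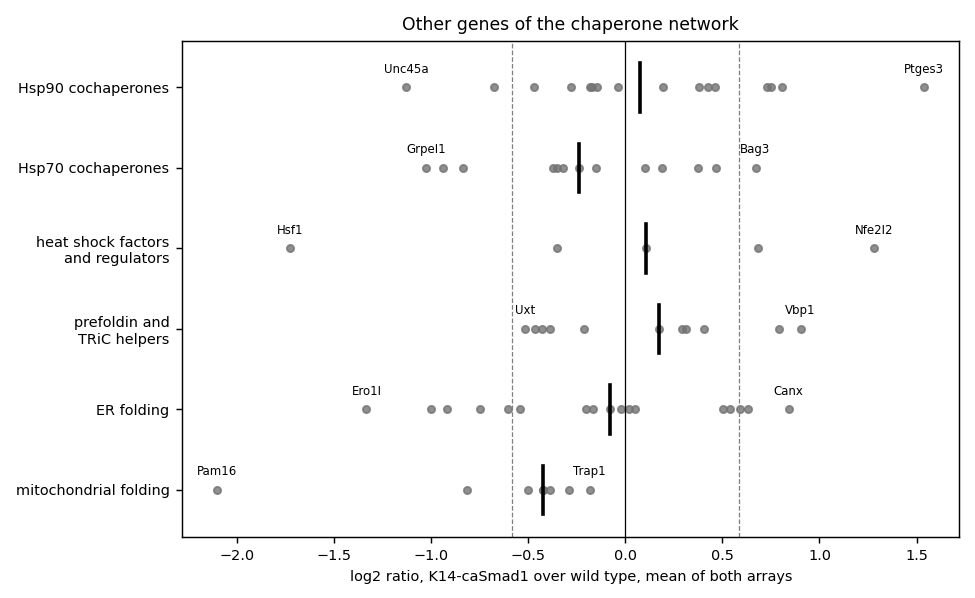
Mean log2 ratio of both arrays (horizontal axis) of each tested gene in 6 lists of chaperone partners and regulators, with a bar at each list's median, dashed lines at 1.5-fold, and names at the lowest and highest gene of a list. Mitochondrial folding genes all lie below 0, with a median of -0.42, while the other lists lie on both sides.

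Markers of other cell types moved between the genotypes. Of 10 hair shaft genes, such as hair keratins, 9 were tested and each was at least 2-fold lower, with a median log2 ratio of -4.09. Their summed signal ran from 1182008 to 1296269 in wild type and from 58821 to 60397 in K14-caSmad1. Of the 14 keratinocyte markers 9 were at least 1.5-fold higher and 1 lower, with a summed signal of 514860 to 537392 in wild type and 876556 to 935341 in K14-caSmad1. All 4 tested markers of Langerhans and T cells were above 0, and none of 5 muscle markers was tested. Below 0 were all 5 tested markers of melanocytes, all 3 of red blood cells and 4 of 5 of fibroblasts. Of these, 3, 1 and 4 were above background in wild type only. Such genes could be tested only through wild type, which fixed their direction beforehand. The fibroblast marker above 0, Vim, was above background in both channels, at 1.46 and 1.33. Of 10 early response genes known to rise when tissue is dissociated, 0 were at least 1.5-fold higher and 4 lower, with Fos at -1.46 and -1.50. The part of these shifts in the values of the chaperone genes was not tested.

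**Figure D5:**
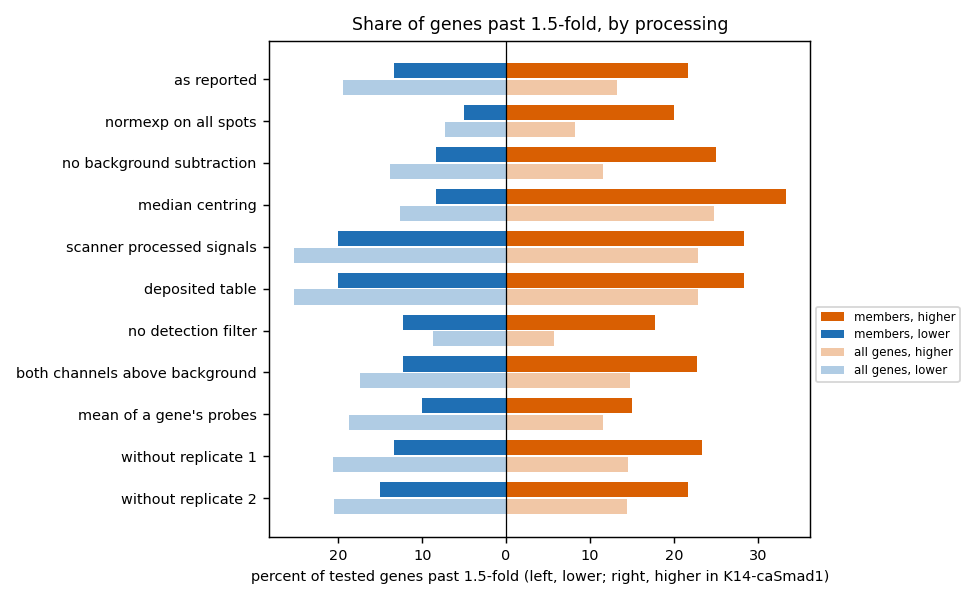
Percent of tested genes past 1.5-fold on both arrays (horizontal axis, lower in K14-caSmad1 to the left and higher to the right) among the members (dark bars) and among all genes (pale bars), as reported and under 10 other settings, where a setting with a replicate left out uses 1 array. The members' share of higher genes was above that of all genes in each setting, and their share of lower genes was below it in each setting other than the one without a detection filter.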

How the data were processed

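RNA of wild-type and K14-caSmad1 keratinocytes was read on 2 arrays scanned with Agilent Feature Extraction 10.5.1.1, per the file headers. Probe positions are on build mm9. The deposited scanner files hold intensity values per spot and channel, without normalization, and processed intensities that the software background-subtracted and dye-normalized, per the file headers. The deposited table of the series holds log10 ratios of Cy5 over Cy3. It differed from the log10 ratio of the processed signals by at most 0.00397.

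Here mean signal and median local background were corrected by normexp (limma 3.58.1, offset 50) without 36 spots on non-uniform background of replicate 1, a choice known from earlier results of these data. Log2 ratios were normalized within arrays by loess (span 0.3, weight 0 for controls), with no scaling of the ratios between arrays. Outlier spots were left out and repeated spots averaged. No gene spot was saturated. Ratios were fitted in limma (lmFit, eBayes, R 4.3.3) over 11748 genes. A call means at least 1.5-fold or 2-fold the same way on both arrays. On simulated data the fit was checked before use. The number of arrays limits the precision. All channel signals given here, their sums and the bounds are after Aquantile scaling between arrays. That scaling gives the arrays the same distribution of mean intensity and leaves the ratios unchanged.

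The members and lists were chosen with earlier results of these data known. Genes described were all members past 1.5-fold, the main chaperone of each family and the Cct subunits, members whose probes opposed each other past 0.5, the 2 largest ratios past 1.5-fold of each other chaperone list, and Smad1. Marker lists covered keratinocyte, hair shaft, melanocyte, fibroblast, endothelial, Langerhans and T cell, muscle, red blood cell and early response genes. Tested alternatives were the background correction, normalization, detection filter, probe rule, fit and replicates. No probe was placed in an exon or UTR, since no annotation of mm9 was used here.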

Additional observations from a re-analysis of the deposited data

How the results depend on the processing

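Of the 21 members past 1.5-fold, 10 were so in each of 10 other settings: Cct4, Cct8, Dnajb1, Dnajb4, Hspa1b, Hspa9 and Hspe1 higher and Dnajc6, Dnajc7 and Hspa14 lower. No called member changed sign (0 cases). Counts moved as follows, and the cause was not tested. Members past 1.5-fold higher went from 13 to 20 under median centring, and lower from 8 to 5 there, 5 without background subtraction and 3 with normexp on all spots. Over all genes the higher share went from 13.2% to 24.8% under median centring. The lower share over all genes went from 19.5% to 12.7% there, 13.8% without background subtraction and 7.31% with normexp on all spots. Members past 2-fold higher went from 3 to 11 under median centring and to 6 with either the processed signals or the authors' table. Those past 2-fold lower went from 3 to 6 with either of these and to 0 with normexp on all spots. Over all genes the 2-fold higher share went from 4.09% to 9.45% under median centring and to 10.7% with either of these. The 2-fold lower share over all genes went from 9.81% to 16% with either of these and to 4.02% with normexp on all spots. Leaving out a replicate gave 13 to 14 higher and 8 to 9 lower at 1.5-fold, and 3 to 5 higher and 4 lower at 2-fold, the 5 being without replicate 1. Over all genes 14.4% to 14.5% were then higher and 20.5% to 20.6% lower at 1.5-fold. At 2-fold these shares were 4.51% to 4.66% and 10.4%. By limma 17 members were higher and 5 lower with normexp on all spots, and 14 lower under median centring. Over all genes 1586 of 11758 were higher and 1681 lower with normexp on all spots, and 3575 of 11748 lower under median centring. An intensity trend left both member counts within 1.5 times. The other chaperone genes past 1.5-fold higher went from 10 to 20 under median centring and 4 when probes of a gene were averaged. Those past 1.5-fold lower went from 13 to 8 under median centring and, with normexp on all spots, 6. With averaged probes 11.6% of all genes were higher. The median of the members, 0.07, was 0.17 with normexp on all spots, 0.13 without background subtraction, 0.34 under median centring, 0.13 with processed signals or the authors' table, 0.028 without a detection filter, 0.090 with both channels above background, 0.13 with averaged probes, and 0.073 to 0.0902 with a replicate left out. Relative to all genes it was 0.02 to 0.17, an alternative chosen after seeing the data. Leaving out an array leaves 1 array and no test. No paired analysis was possible because both genotypes of a replicate number lie on the same array, whose ratio is already the paired value. Signals near background give only bounds for Hspa12b, Dnajb5 and Dnajc12.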

Other observations

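Some relatives of these families carry older names on the array and were therefore outside the naming rule. RefSeq symbols placed 10 such genes in the Hspa, Hspb, Dnajc or Cct families, of which 5 were tested. Hspbp1 (listed as 1500019G21Rik), an exchange factor of Hsp70, had log2 ratios (K14-caSmad1 against wild type) of -1.12 and -1.14 on the arrays, and a second probe gave -0.30 and -0.39. Hspb11 (listed as 2900042B11Rik), a protein of intraflagellar transport, had 0.62 and 0.49. Hspa13 (listed as Stch) had 0.24 and 0.25, and Dnajc24 (listed as Dph4), which acts in diphthamide synthesis, had 0.12 and 0.12. Dnajc30 (listed as Wbscr18) had 0.03 and -0.02, with no common direction. Of these Hspbp1 was the gene past 1.5-fold on both arrays, on its brighter probe.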
